A study of Rattus norvegicus with 15 samples.

Results

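The genes described here encode the parts of the nuclear pore and the receptors that carry cargo through it: nucleoporins, importins, transportins, exportins and the proteins of the Ran cycle. They were chosen by gene symbol, with earlier results of these data known. Members are the probe sets with 1 symbol in the platform's annotation. That symbol names a numbered nucleoporin, an importin alpha or beta, a numbered importin, an exportin, a transportin, Ran, Ranbp1, Ranbp2 or Rangap1. This gave 75 probe sets for 47 genes, out of 31042 probe sets that are not array controls and 14217 genes with a probe set of their own. The arrays came from testes of LBNF1 rats, a hybrid laboratory strain, aged 25 to 27 weeks. The labels give 10 control samples, taken before irradiation, and 5 irradiated samples, from rats whose lower abdomen received 6 Gy. No other treatment is named for either group, the sources used here give no time of collection after the dose, and the labels do not say whether each sample is a different rat, so a p-value measures only how these samples spread.

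Traffic between nucleus and cytoplasm runs through pores built of ring-shaped scaffolds, a channel lined with flexible phenylalanine-glycine repeats, filaments on the cytoplasmic side and a basket on the nuclear side. Importins load cargo in the cytoplasm and release it in the nucleus when they bind the small GTPase Ran in its GTP form, and exportins load cargo together with Ran-GTP and release it outside, where Rangap1 makes Ran hydrolyse its GTP. In the testis this machinery serves the import of meiotic and chromatin proteins into germ cell nuclei, and importin family members are known to differ between germ cell stages.

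The testis samples carried the markers of their tissue, and the groups lay far apart. Signals are MAS5 values on a log2 scale with an unknown zero point, and a change is irradiated minus control, in log2 units unless a fold is given. Across the probe sets tested, arrays correlated at 0.918 to 0.960 among controls, 0.958 to 0.972 among irradiated samples and 0.219 to 0.277 between the groups. Of markers of spermatocytes, round spermatids and elongating spermatids, 6 of 6, 7 of 7 and 11 of 11 tested genes were lower in irradiated testes, and the log2 of their summed signals went from 5.97 to 6.35, 6.25 to 6.64 and 8.69 to 9.32 in the control arrays to -0.27 to 0.08, 0.43 to 0.86 and 0.86 to 2.16 in the irradiated arrays. All 6 spermatocyte markers, among them Sycp1 and Sycp3 of the synaptonemal complex, lay under the median of all 5 irradiated arrays. Of Sertoli, Leydig and peritubular myoid cell markers, 9 of 9, 8 of 8 and 7 of 7 were higher, and their summed signals were 4.55 to 4.96, 2.72 to 3.25 and 2.58 to 3.07 in controls and 6.64 to 7.21, 6.37 to 6.69 and 4.08 to 4.60 in irradiated samples. Of macrophage and endothelial markers 6 of 8 and 5 of 6 were higher and 2 and 1 lower, with summed signals of 3.37 to 3.81 and 0.21 to 0.94 in controls and 3.48 to 3.79 and 1.75 to 1.88 in irradiated arrays, and of spermatogonial markers 3 of 6 were higher and 1 lower (2.55 to 2.83 against 2.82 to 3.31). The part of this shift in cell make-up in each result below was not tested, and in whole testis fewer cells of a type and less RNA per cell cannot be told apart. The 3' probe set of actin exceeded the 5' one most in control replicates 6, 7 and 8 (1.89, 1.37 and 1.44, against 0.65 to 1.05 in the other controls and 0.90 to 1.16 in irradiated arrays), a measure that moves with RNA integrity.

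Genes of nuclear transport fell more often than they rose in irradiated testes. A probe set was tested if it reached the median of its array in at least 5 of the 15 arrays, and a change passed at an adjusted p of 0.05 or less (limma, adjusted over all probe sets tested). Of the 75 probe sets 66 were tested, and 41 were lower, 14 higher and 11 did not pass. The 41 include Nup58 1388073_a_at and Rangap1 1397465_at, whose changes were 0.10 and -0.09 with values raised to the array median. Among all 18711 probe sets tested, 83.4% passed, 49.0% higher and 34.3% lower, against 21.2% higher and 62.1% lower here. At the level of genes, each represented by its tested probe set with the highest mean, 29 of 45 were lower and 9 higher (64.4% and 20.0%), where 37.9% of all 10841 genes tested were lower and 47.6% higher, and 85.5% passed in all. By 2-fold or more, 15 genes were lower and 6 higher (33.3% and 13.3%, against 22.8% and 31.9% of all genes). These counts use measured values, and for Nup133 and Nup50, among the 15, signals below the array median leave bounds under 2-fold. Ipo8, among the 9 and the 6 higher genes, passed the filter only through the irradiated arrays. The median change of the 45 genes was -0.64, and that of all genes tested 0.20. The 2 groups did not overlap in 30 of the 45 genes (66.7%, against 69.5% of all genes). The 2 genes not tested were Nup107, a scaffold nucleoporin, and Nup210, a pore membrane protein, whose signals were below the array median in 14 and 13 of the 15 arrays. Quantile normalization moved the median of all genes to -0.06 and left 8 higher and 33 lower genes. Centring arrays on their medians moved it to 0.05, with 8 higher and 32 lower. Both scalings lowered the change of all 66 probe sets tested except that of Ran after quantile normalization.

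**Figure D1:**
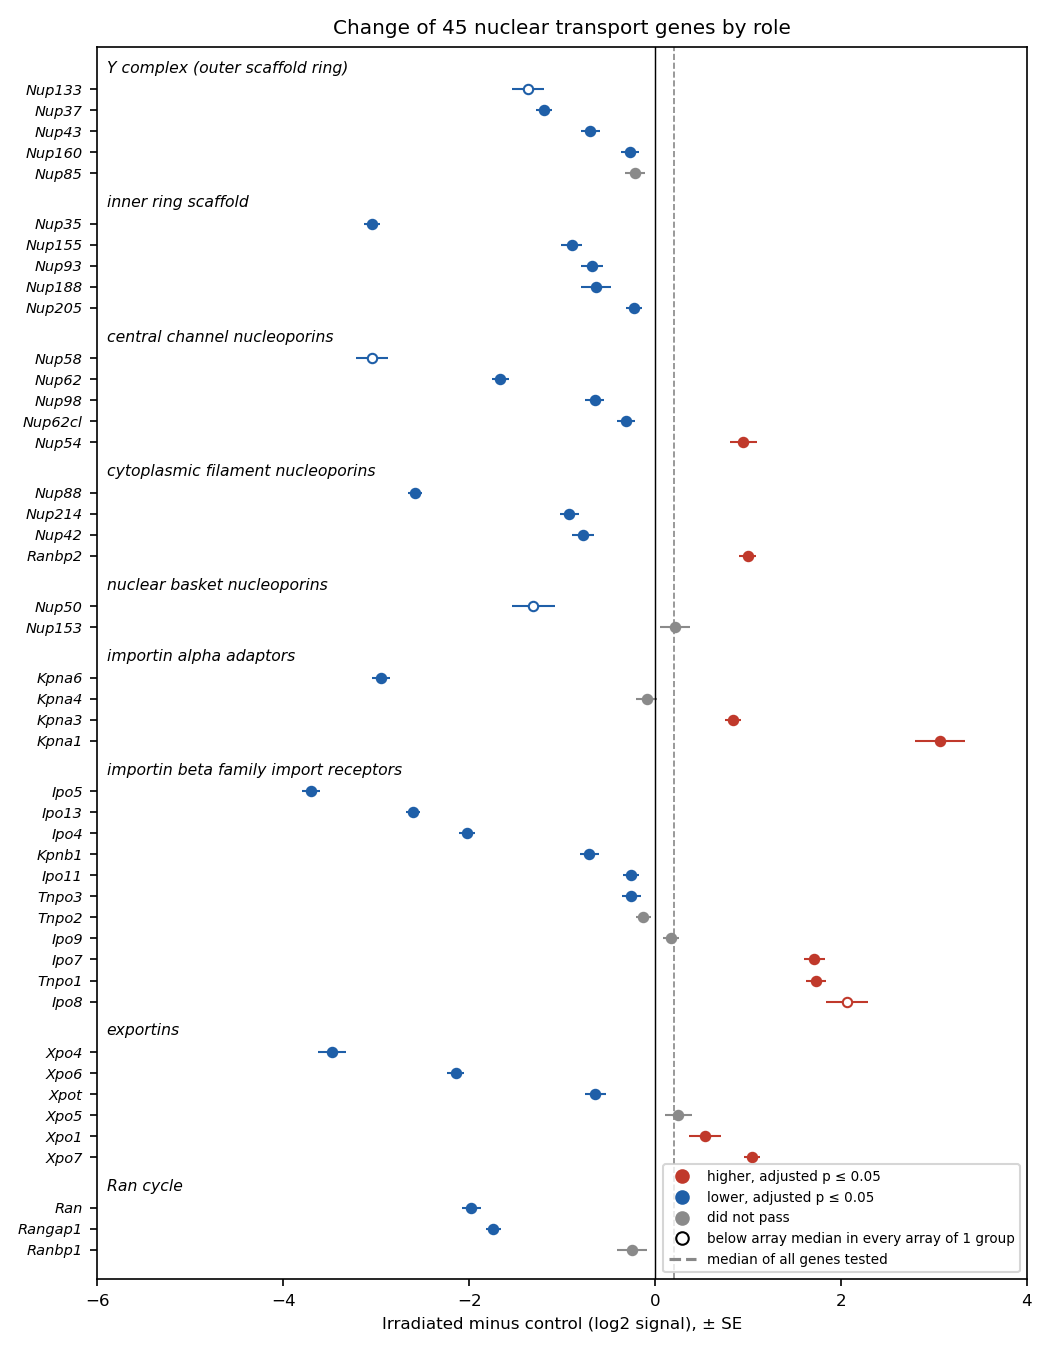
Change in log2 signal from control to irradiated testes (horizontal axis, with limma's standard error) for the 45 genes tested, grouped by role. Red and blue points passed an adjusted p of 0.05, grey points did not, open points mark genes below the array median in every array of 1 group, and the dashed line is the median of all genes tested. The scaffold and Ran cycle genes lie left of 0, while importins and exportins spread from -3.70 to 3.07.

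Of the 10 scaffold nucleoporins tested under these symbols, 9 fell and 1, Nup85, did not pass, where 37.9% of all genes tested fell. Of the Y complex subunits outside these symbols, Sec13 and Ahctf1 fell (-0.32 and -2.15), although another Ahctf1 probe set rose by 0.59. Seh1l, also outside them, rose and is described with the other pathway genes. Of the Y complex, the outer ring of the pore, 4 of 5 tested genes were lower and 1 did not pass (median -0.70), and of the inner ring, which holds the channel, 5 of 5 were lower (median -0.68). The largest measured fall among them was that of Nup35, an inner ring protein that binds the pore membrane. Its log2 signals were 3.16, 3.35 and 3.60 (lowest, median, highest) in control arrays and 0.53, 0.35, 0.16, 0.35 and 0.37 in irradiated replicates 1 to 5. The groups were far from overlapping, and the change was -3.04 ± 0.09 (SE, n = 10 and 5), an 8.24-fold lower signal (limma adjusted p = 8.74e-15). The inner ring proteins Nup155, Nup93 and Nup188 changed by -0.90, -0.68 and -0.64, and Nup205 by -0.22 (adjusted p = 1.92e-06, 6.59e-05, 0.00196 and 0.0275). Nup188 signals in control replicates 6 and 7 were 0.81 and 0.67, within reach of the irradiated arrays (0.56 to 0.81), against 1.07 to 1.67 in the other controls. With control replicates 6 to 10 alone its change was -0.37 (adjusted p = 0.0517). The Nup205 call was lost without irradiated replicate 2, 3, 4 or 5, at adjusted p-values of 0.0523, 0.0557, 0.0635 and 0.0569, with control replicates 6 to 10 alone (0.120) and with replicate number as a block (0.0702). Both scaling alternatives made its change larger (-0.59 and -0.38).

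Nup133, Nup37, Nup43 and Nup160 fell within the Y complex, and they are not ranked because Nup133 has only a bound. The control signals of Nup133 ran from -1.10 over a median of -0.59 to -0.13, and its irradiated values were -1.97, -1.42, -2.37, -2.26 and -1.97. All 5 irradiated values lay below their array medians, so that Nup133 was at least 1.60-fold lower (measured change -1.36 ± 0.17, adjusted p = 1.33e-06). Nup37, a peripheral subunit of the complex, averaged 1.27 ± 0.14 (SD, n = 10) in controls and 0.07 ± 0.10 (SD, n = 5) in irradiated arrays (change -1.19, adjusted p = 7.72e-10), while its second, dimmer probe set did not pass (-0.25, adjusted p = 0.191). That probe set was lower after quantile normalization (-0.42, adjusted p = 0.0371), after centring (-0.40, adjusted p = 0.0365), with control replicates 6 to 10 alone (adjusted p = 0.0478) and without control replicate 3 (adjusted p = 0.0332). Nup43 fell by 0.70 without overlap between the groups. Nup160 changed by -0.27 (adjusted p = 0.0194, but 0.0513 without irradiated replicate 4 and 0.0911 with control replicates 6 to 10 alone), and Nup85 did not pass (-0.22, adjusted p = 0.0804), although it did after quantile normalization (-0.56), after centring (-0.37), with control replicates 6 to 10 alone (-0.34) and without control replicate 1 or 4 (-0.26 and -0.25).

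The channel nucleoporins went both ways. Nup54, Nup58 and Nup62 form the repeat-rich complex that lines the channel, and their changes differed in sign. Nup62 fell from 2.62 ± 0.16 (SD, n = 10) to 0.96 ± 0.10 (SD, n = 5), a 3.17-fold lower signal (change -1.67 ± 0.09, adjusted p = 2.55e-11). Nup54 was at -1.83, -1.43 and -0.91 (lowest, median, highest) in controls, below the array median in 4 of the 10, and at -0.14, -0.81, -0.21, -0.28 and -0.65 in irradiated samples. Its groups did not overlap, and its change was 0.95 ± 0.15 (adjusted p = 1.60e-05). Nup98, a repeat nucleoporin that also gates the channel, changed by -0.65 and, in its other probe set, was at least 1.43-fold lower. Nup62cl, which resembles the end of Nup62, changed by -0.31 (adjusted p = 0.00729) in the probe set with the higher mean, whereas in its other probe set it was at least 2.91-fold lower, with control signals from -0.09 to 0.57 and every irradiated signal below its array median.

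On the cytoplasmic face, Nup88 and Nup214, which sit together at the filament base, both fell, and Ranbp2, the large filament protein that binds Ran and attaches SUMO to targets, rose. Nup88 signals were 3.14, 3.40 and 3.49 (lowest, median, highest) in controls and 0.82, 0.80, 0.88, 0.84 and 0.69 after irradiation. This was a 5.99-fold lower signal (-2.58 ± 0.07, adjusted p = 4.82e-15), and no control value came near an irradiated one. Nup214 changed by -0.92 and -0.65 in 2 of its probe sets (adjusted p = 1.94e-07 and 0.00491) and did not pass in the third (-0.51, adjusted p = 0.172, but 0.0375 without control replicate 2). Nup42, a cofactor of messenger RNA export, changed by -0.77 (adjusted p = 1.65e-05). Ranbp2 was at 0.06, 0.26 and 0.45 in controls and 1.26, 1.03, 1.36, 1.20 and 1.31 in irradiated arrays, a change of 1.00 ± 0.09 (adjusted p = 2.49e-08) that was as large without control replicates 6, 7 and 8 (1.01). A second probe set of Ranbp2 rose by 0.63, by 0.37 without those 3 arrays, and did not pass after quantile normalization (0.28, adjusted p = 0.17), and the other two were not tested. In the nuclear basket, Nup50, which helps importin alpha let go of its cargo, was at -1.47, -0.37 and -0.07 in controls and at -1.38, -2.14, -1.68, -2.45 and -1.41 in irradiated samples. The groups overlapped through control replicate 6, all irradiated values were below the array median, and Nup50 was at least 1.75-fold lower (adjusted p = 5.89e-05). Nup153, an anchor of the basket, did not pass (0.21, adjusted p = 0.227), and its sign turned after quantile normalization (-0.03) and with control replicates 1 to 5 alone (-0.04), while with control replicates 6 to 10 alone it was higher (0.47, adjusted p = 0.00691). Of the 21 nucleoporins tested under these symbols, 17 were lower and 2 higher, with a median change of -0.70. For all genes tested the shares were 37.9% lower and 47.6% higher. Among nucleoporins outside these symbols, Seh1l, Ndc1 and the basket protein Tpr rose (1.51, 1.08 and 0.44). Ahctf1, Aaas, Gle1, Pom121, Rae1 and Sec13 fell (-2.15, -2.29, -0.89, -0.67, -0.57 and -0.32). Ahctf1 and Gle1 each rose in another probe set (0.59 and 0.64).

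**Figure D2:**
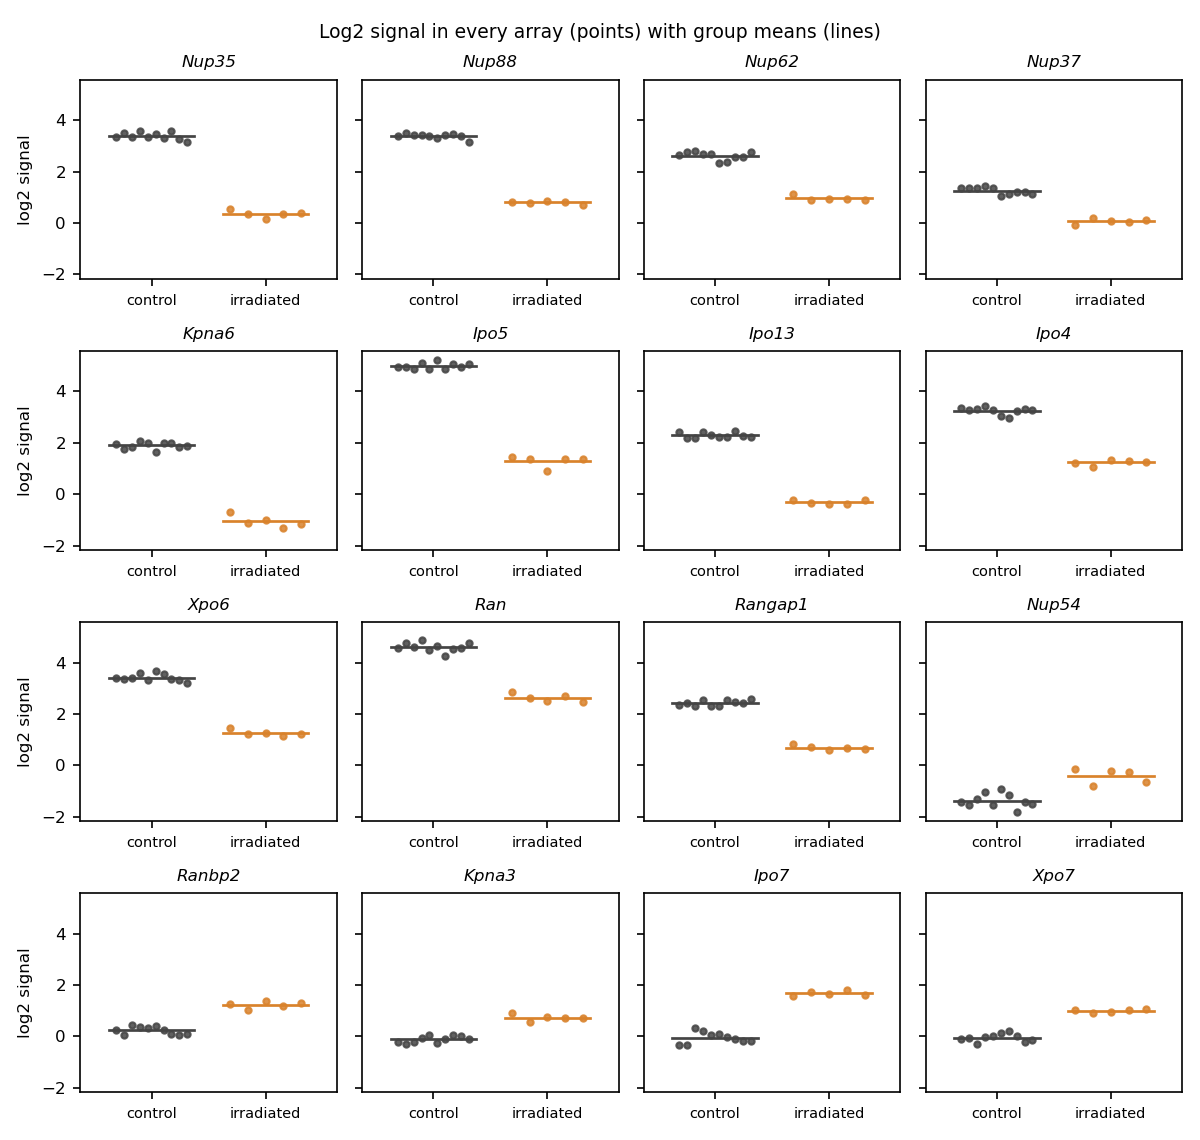
Log2 signal of 16 genes in each control array (grey points) and each irradiated array (orange points), with the group means as lines. In these genes the irradiated arrays lie wholly below the controls, as in Nup35 and Ipo5, or wholly above them, as in Ranbp2 and Ipo7. All 16 are among the 30 of 45 genes without overlap (66.7%, against 69.5% of all genes), so the separation follows from the choice.

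The transport receptors were more divided than the pore. Of 21 tested import and export receptors 10 were lower, 7 were higher and 4 did not pass (median -0.12). Since 37.9% of all genes tested were lower and 47.6% higher, a split in 2 directions is not read as a trait of the receptors. The importin alphas recognise classical nuclear localisation signals and bridge the cargo to importin beta, and of the 4 genes tested 2 were counted higher, 1 lower and 1 did not pass. Kpna6 signals were 1.64, 1.92 and 2.06 (lowest, median, highest) in controls and -0.69, -1.11, -0.99, -1.32 and -1.15 in irradiated arrays, a 7.72-fold lower signal (-2.95 ± 0.10, adjusted p = 6.20e-14). Kpna3 signals averaged -0.11 ± 0.13 (SD, n = 10) in controls and 0.73 ± 0.13 (SD, n = 5) in irradiated arrays. This was a rise of 0.84 (adjusted p = 7.98e-08), and of 0.47 after quantile normalization. Kpna4 did not pass as deposited (1.61 ± 0.23 and 1.52 ± 0.09, change -0.09, adjusted p = 0.457). It was lower after quantile normalization (-0.30, adjusted p = 0.00538), and its sign turned with control replicates 6 to 10 alone (0.05).

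Kpna1 gave opposite changes in different probe sets. In 1372183_at its signals were -0.91, -0.17 and 1.04 (lowest, median, highest) in controls and 3.37, 2.61, 3.26, 2.75 and 2.83 in irradiated arrays, an 8.38-fold higher signal (3.07 ± 0.27, adjusted p = 1.38e-08). In 1382251_at they were -0.31, -0.15 and 0.20 in controls and -1.56, -1.43, -1.24, -1.85 and -1.28 in irradiated arrays, a measured change of -1.37 (adjusted p = 8.53e-09). Of these irradiated values 3 lay below their array medians, and the change was -1.20 with values raised to the array median. The third, 1382756_at, rose by 0.46 (adjusted p = 0.00274), which did not pass after quantile normalization (0.11, adjusted p = 0.396). The groups did not overlap in the first and second of these, so the array gives no single direction for Kpna1, and with the median of the 3 probe sets as its value the gene did not pass (0.22, adjusted p = 0.136).

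The importin beta family held the largest measured fall among these 45 genes, that of Ipo5. Of its 11 genes 6 were lower, 3 higher and 2 did not pass (median -0.26), beside 37.9% lower and 47.6% higher of all genes tested. Ipo5, an importer of ribosomal proteins and histones, had control signals of 4.86, 4.95 and 5.22 (lowest, median, highest) and irradiated signals of 1.45, 1.36, 0.90, 1.36 and 1.36 in 1373955_at. The change was -3.70 ± 0.10, a 13-fold lower signal (adjusted p = 1.96e-15). In its second tested probe set, 1396742_at, Ipo5 was at least 15.5-fold lower. Control replicates 6, 7 and 8 read 1.49, 1.61 and 1.80 there, under the 2.52 to 3.32 of the other controls, and without them the measured change was -4.69 in place of -4.26. Ipo13, which imports some cargoes and exports others, and Ipo4, an importer of histones, changed by -2.61 ± 0.07 and -2.02 ± 0.09, with adjusted p-values of 5.66e-15 and 1.26e-12. Kpnb1, importin beta itself, averaged 0.80 ± 0.18 (SD, n = 10) in controls and 0.10 ± 0.14 (SD, n = 5) after irradiation (change -0.71, adjusted p = 6.54e-06), and fell by 0.95 in its other probe set. Ipo11 and Tnpo3, an importer of splicing factors, changed by -0.26 each (adjusted p = 0.0117 and 0.0296). The Ipo11 call was lost with control replicates 1 to 5 alone (adjusted p = 0.0622) and with the replicate block (0.0872). That of Tnpo3 was lost without irradiated replicate 2 or 4 (adjusted p = 0.0669 and 0.0891), without control replicates 6, 7 and 8 (0.0717) and with control replicates 6 to 10 alone (0.191). The second probe set of Tnpo3 passed in all of these (-0.32 with all arrays, adjusted p = 0.00873). Tnpo2 (-0.12, adjusted p = 0.169) and Ipo9 (0.17, adjusted p = 0.0761) did not pass. After quantile normalization the sign of Ipo9 turned (-0.12) and Tnpo2 was lower (-0.30, adjusted p = 0.00183), as it was after centring (-0.28, adjusted p = 0.00759). With control replicates 6 to 10 alone Ipo9 was higher (0.24, adjusted p = 0.0404).

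The importers that rose were the paralogs Ipo7 and Ipo8 and, in one of its probe sets, Tnpo1. Ipo7 carries ribosomal proteins and, with importin beta, linker histone. Its signals were -0.33, -0.06 and 0.33 in controls and 1.57, 1.73, 1.67, 1.79 and 1.61 in irradiated samples, a 3.29-fold higher signal (1.72 ± 0.11, adjusted p = 2.05e-10). Ipo8 was below the array median in all 10 controls (-3.19 to -1.71) and above it in all irradiated arrays (-0.01, -0.47, -0.57, -0.52 and 0.02), so that it was at least 2.23-fold higher (adjusted p = 2.11e-07). It passed the filter only through the irradiated arrays, where it was high, so its p-value is not read as support. A second Ipo8 probe set was not tested because only 4 arrays, all irradiated, reached the median. Tnpo1 imports RNA-binding proteins. In 1399017_at it was at -0.02, 0.19 and 0.59 in controls and at 2.02, 2.08, 1.94, 1.83 and 1.88 in irradiated samples, a change of 1.73 ± 0.11 (adjusted p = 1.53e-10). In 1381364_at its signals were -0.71, -0.17 and 0.28 in controls and -1.81, -1.35, -1.52, -1.94 and -1.24 in irradiated samples, a measured change of -1.43 (adjusted p = 4.15e-07). Of these irradiated values 4 lay below their array medians, and the change was -1.17 with values raised to the array median. The third Tnpo1 probe set was close to the threshold (0.57, adjusted p = 0.0513, and 0.0303 without control replicate 8), and the median of the 3 fell (-0.73, adjusted p = 0.000175).

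The start regions of genes with large changes in each direction are shown with the motifs searched. RefSeq promoter windows of the assembly GRCr8 were matched by gene identifier to 41 of the 47 genes. Printed are the 250 bases before the start site of the 2 genes with the largest measured falls and the 2 with the largest measured rises among those whose probe sets did not disagree and that had 1 window, read 5′ to 3′ on the gene's own strand. Ipo5 is at chr15:104411998-104412247 (plus strand), Nup35 at chr3:85965657-85965906 (plus strand), Ipo8 at chr4:183524520-183524769 (minus strand) and Ipo7 at chr1:173497222-173497471 (plus strand). Capitals mark matches to the motifs searched on both strands: CCAAT (the CCAAT box), TGACGTCA (the cyclic AMP response element), CCGGAAG (the ETS core) and the consensus NRF1 site.
Ipo5: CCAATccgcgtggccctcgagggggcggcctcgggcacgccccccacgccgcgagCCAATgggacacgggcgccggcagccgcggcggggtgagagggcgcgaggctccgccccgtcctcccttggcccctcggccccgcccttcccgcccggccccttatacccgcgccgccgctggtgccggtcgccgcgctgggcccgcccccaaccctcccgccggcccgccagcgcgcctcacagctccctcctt
Nup35: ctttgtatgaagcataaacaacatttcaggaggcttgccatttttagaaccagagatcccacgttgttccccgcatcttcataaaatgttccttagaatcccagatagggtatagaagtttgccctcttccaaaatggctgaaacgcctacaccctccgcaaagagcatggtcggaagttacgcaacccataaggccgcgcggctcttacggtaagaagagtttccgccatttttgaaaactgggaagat
Ipo8: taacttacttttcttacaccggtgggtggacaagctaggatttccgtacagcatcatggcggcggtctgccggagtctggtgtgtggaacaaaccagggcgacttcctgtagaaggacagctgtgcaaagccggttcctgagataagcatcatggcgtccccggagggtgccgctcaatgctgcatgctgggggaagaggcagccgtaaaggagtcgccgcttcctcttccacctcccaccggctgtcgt
Ipo7: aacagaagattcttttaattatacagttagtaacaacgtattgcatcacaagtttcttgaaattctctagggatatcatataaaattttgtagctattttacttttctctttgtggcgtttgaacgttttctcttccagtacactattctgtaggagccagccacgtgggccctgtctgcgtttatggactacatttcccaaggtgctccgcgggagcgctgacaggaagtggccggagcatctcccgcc
The Ipo5 window is 80.8% G and C and holds 2 CCAAT boxes, which do not overlap. The windows of Nup35, Ipo8 and Ipo7 are 46.0%, 58.0% and 43.6% G and C and hold none of these letters. Among the genes that fell, 14 of 27 with a window held a CCAAT box, 5 an ETS core (Ipo4, Nup155, Nup214, Tnpo3 and Xpo6), 2 a cyclic AMP response element (Nup133 and Nup214) and 0 an NRF1 site. Among the 6 that rose with a window, Tnpo1 and Xpo1 held a CCAAT box and 0 held any of the other motifs. Of all 33469 windows, 34.0%, 7.27%, 1.59% and 0.762% held these 4 motifs, in the order CCAAT box, ETS core, cyclic AMP response element and NRF1 site. The median G and C share was 61.2% in windows of genes that fell, 59.0% in windows of genes that rose and 51.2% in all windows. The member and background figures are unlike. For the motifs a member gene counted once if any of its windows matched, while the background counted single windows. The background windows belong to 27457 genes, which include genes not tested on these arrays. A match is a description of the letters and was not tested as a site.

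Exportins were split. Of 6 genes 3 were lower, 2 higher and 1 did not pass (median -0.20). Beside 37.9% lower and 47.6% higher of all genes tested, this split is not read as a trait of exportins. Xpo6, which exports actin, fell from 3.42 ± 0.14 (SD, n = 10) to 1.27 ± 0.12 (SD, n = 5), a 4.43-fold lower signal (-2.15 ± 0.09, adjusted p = 6.51e-13), and Xpot, the exportin of transfer RNA, changed by -0.64 (adjusted p = 5.86e-05). Xpo7 rose, with signals of -0.29, -0.04 and 0.21 (lowest, median, highest) in controls and 1.04, 0.91, 0.96, 1.03 and 1.08 in irradiated arrays (1.05 ± 0.09, adjusted p = 5.75e-09). A dimmer probe set of Xpo7 was at the threshold (0.42, adjusted p = 0.0503, and 0.71 with control replicates 6 to 10 alone, adjusted p = 0.00494). Xpo1, the general exporter of proteins with leucine-rich signals, rose in both probe sets by unlike amounts. In 1374395_at it was at 0.04, 0.65 and 1.07 in controls and at 2.58, 2.21, 2.24, 2.25 and 2.26 in irradiated arrays (1.72 ± 0.16, adjusted p = 3.27e-08). In 1388150_at, which had the higher mean, the groups overlapped and the change was 0.54 ± 0.17 (adjusted p = 0.00857). Control replicates 6, 7 and 8 read 0.87, 0.48 and 0.59 there, against 1.23 to 1.60 in the other controls, and without them the change was 0.32 (adjusted p = 0.00522). This call was lost after quantile normalization (0.33, adjusted p = 0.0571), after centring (0.39, adjusted p = 0.0503) and with replicate number as a block (0.27, adjusted p = 0.0551).

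Xpo4, an exporter of a translation factor, and Nup58 also had probe sets that moved apart. In 1385428_at Xpo4 was at 1.54, 1.74 and 2.04 in controls and at -1.41, -2.31, -1.61, -1.97 and -1.17 in irradiated arrays, 4 of which lay below their medians (measured change -3.48 ± 0.15, -3.07 with values raised to the array median, adjusted p = 1.42e-12). In 1385864_at it was at least 1.72-fold lower. In 1383296_a_at the signals were -1.01, -0.57 and 0.19 in controls and 0.67, 0.06, 0.21, 0.52 and 0.25 in irradiated arrays. These overlapped through control replicates 6 and 7, and the change was 0.84 ± 0.19 (adjusted p = 0.000534). Nup58, the third member of the channel complex, is known to be made in more than 1 splice form. In 1370711_a_at its signals were -0.03, 0.52 and 0.91 in controls and -2.61, -1.79, -2.89, -2.71 and -2.89 in irradiated arrays, all below the array median, so that it was at least 3.43-fold lower (adjusted p = 4.10e-11). In 1370437_at they were -1.06, -0.87 and -0.55 in controls and 0.10, -0.15, 0.06, 0.01 and -0.09 in irradiated arrays, a rise of 0.84 ± 0.09 (adjusted p = 3.69e-07). Their means over all arrays were -0.55 and -0.57, so that by a margin of the second decimal Nup58 was counted among the genes that fell. A further probe set, 1388073_a_at, was lower as measured but lay below the array median in 5 control and 5 irradiated arrays. With values raised to the array median its change was 0.10, so no direction is read from it. Xpo5, the exporter of microRNA precursors, did not pass in 1388956_at (0.25, adjusted p = 0.116; -0.05 after quantile normalization; 0.32 without control replicate 5, adjusted p = 0.0287) and fell in 1385167_at (-0.84, adjusted p = 1.74e-06). In 1385167_at, 4 irradiated arrays lay below their medians, and the change was -0.67 with values raised to the array median. With the median of the 2 probe sets Xpo5 was lower (-0.29, adjusted p = 0.0159). In all, 4 of the 16 genes with several tested probe sets, Kpna1, Nup58, Tnpo1 and Xpo4, rose in 1 tested probe set and fell in another (25.0%), against 16.9% of the 2692 such genes on the array.

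**Figure D3:**
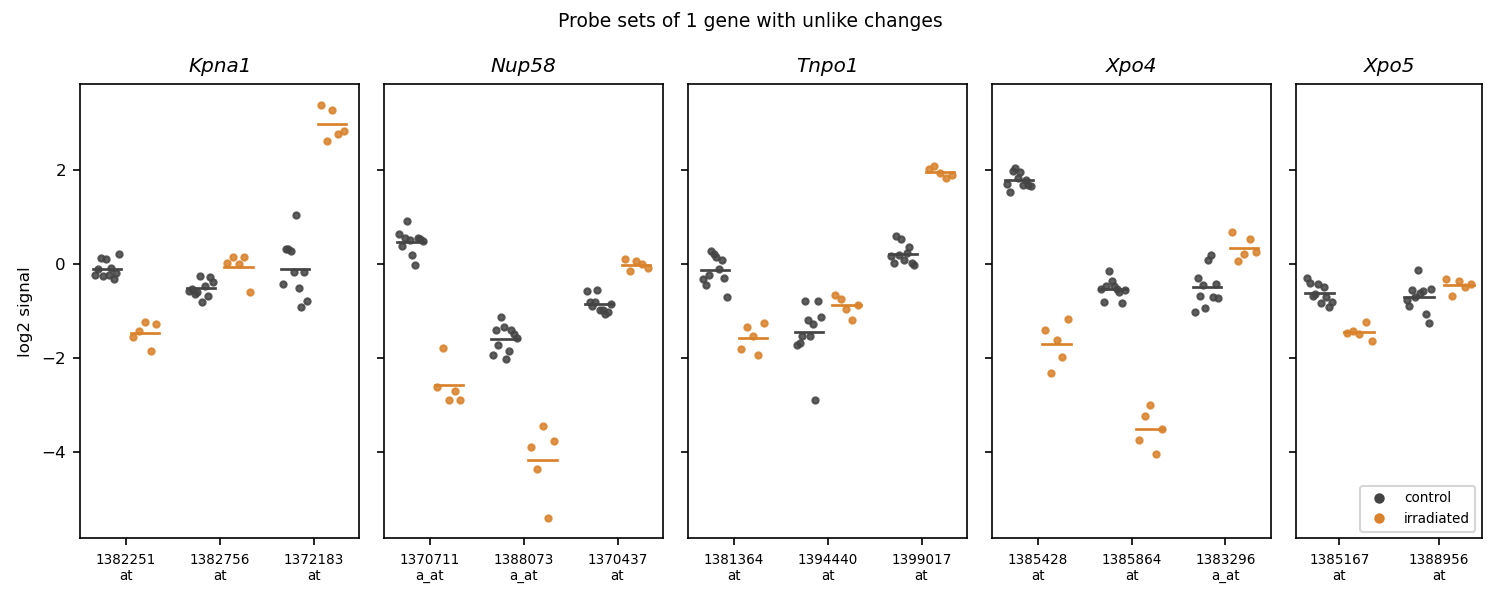
Log2 signal of each tested probe set of 5 genes in control arrays (grey) and irradiated arrays (orange), with group means as lines, ordered within a gene from the largest fall to the largest rise. In Kpna1, Nup58, Tnpo1 and Xpo4 at least 1 probe set lies lower and at least 1 higher after irradiation.

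The Ran cycle fell in 2 of 3 genes and rose in none, beside 37.9% lower and 47.6% higher of all genes tested. Ran was at 4.25, 4.60 and 4.88 (lowest, median, highest) in controls and at 2.85, 2.64, 2.52, 2.68 and 2.47 in irradiated samples, a 3.93-fold lower signal (-1.98 ± 0.10, adjusted p = 9.33e-12). Rangap1, which ends the Ran-GTP state in the cytoplasm, fell from 2.42 ± 0.11 (SD, n = 10) to 0.68 ± 0.09 (SD, n = 5), a 3.34-fold lower signal (adjusted p = 1.80e-12). Its second probe set, 1397465_at, changed by -1.94 as measured (adjusted p = 3.04e-05), but the groups overlapped. With values raised to the array median its change was -0.09. Ranbp1, the helper of Rangap1, did not pass (-0.25, adjusted p = 0.158). It was lower after quantile normalization (-0.46, adjusted p = 0.0137) and after centring (-0.40, adjusted p = 0.0245).

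Paralogs changed by unequal amounts in 5 of the 6 pairs whose genes were both tested, of 10 listed. Among all genes tested 85.5% passed and 69.5% had groups that did not overlap. No share was taken for pairs of other genes, so the count is not read as a trait of paralogs. The signal of 1 gene minus that of the other was taken within each array and compared between groups by an exact permutation test, 2-sided, with p-values adjusted over the 6 pairs and 0.000333 as the smallest p possible. The changes of Kpna1 (in 1372183_at) and Kpna6 differed by 6.02, those of Xpo7 and Ranbp17, an exportin-like receptor, by 2.24, those of Tnpo1 (in 1399017_at) and Tnpo2 by 1.86, and those of Kpna3 and Kpna4 by 0.93. In each of these pairs the first gene gained relative to the second, the within-array differences of the groups did not overlap, and the exact permutation p was the smallest possible (adjusted p = 0.0004). Nup62 lost 1.36 relative to Nup62cl with the same p. These values hold for the probe sets named. The opposed Kpna1 probe set changed by -1.37, still a smaller fall than that of Kpna6 (-2.95), but with the opposed Tnpo1 probe set (-1.43, against -0.12 in Tnpo2) the order within that pair is the reverse. For the other Nup62cl probe set only a bound is known, at least 2.91-fold lower against 3.17-fold in Nup62, which leaves the order within that pair unsettled. No comparison is drawn for Ipo7 and Ipo8, since all 10 control values of Ipo8 lay below the array median. Their measured changes differed by -0.35 (exact permutation p = 0.258, adjusted p = 0.258), a difference that turned to 0.25 with a pseudocount of 0.25.

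**Figure D4:**
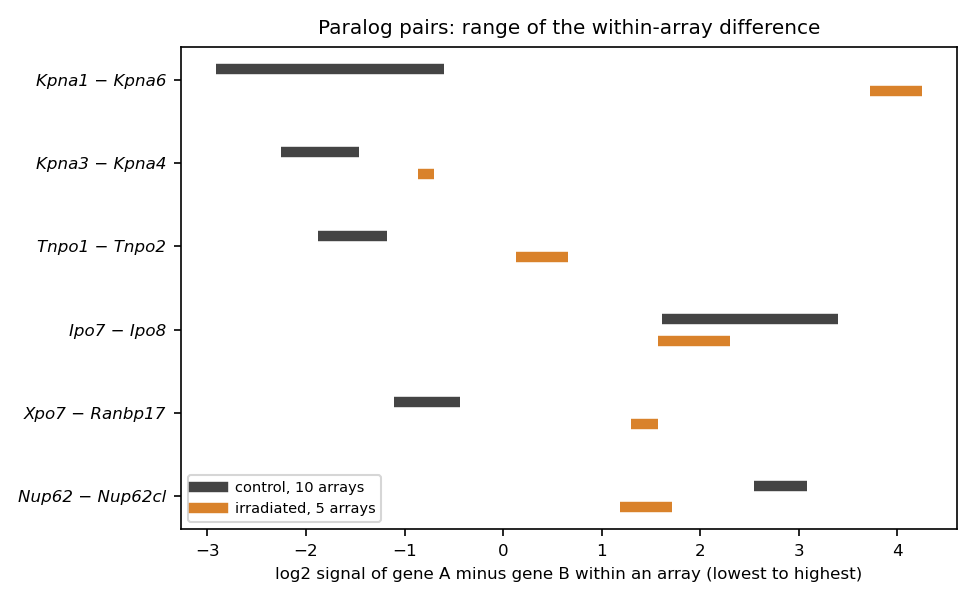
Range from the lowest to the highest within-array difference in log2 signal between the genes of each paralog pair, over 10 control arrays (grey bars) and 5 irradiated arrays (orange bars). The bars of the 2 groups overlap for Ipo7 and Ipo8 only, where the control signals of Ipo8 are all below the array median.

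Other genes of the pathway, outside the symbols above, went both ways as well. Of 43 listed symbols 39 were on the array and tested, and 23 were lower, 13 higher and 3 did not pass (median -0.57). The shares of all genes tested were 37.9% lower and 47.6% higher. The 3 largest falls were those of Ddx25, a testis RNA helicase that exports messenger RNA and was at least 28.5-fold lower, of Rangrf, a Ran-binding protein (-3.78 ± 0.08, adjusted p = 1.16e-16), and of Nxt1, the partner of the messenger RNA exporter Nxf1 (-3.24 ± 0.13, adjusted p = 5.98e-13). The 3 largest rises were those of Thoc2, a subunit of the THO complex (1.75 ± 0.30, adjusted p = 4.67e-05), Hikeshi, an importer of heat shock proteins (1.52 ± 0.12, adjusted p = 3.41e-09), and the Y complex subunit Seh1l (1.51 ± 0.10, adjusted p = 2.00e-10).

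Spread within groups was small beside the larger changes. The SD of the 66 tested probe sets had a median of 0.20 in control arrays (0.10 to 0.74) and 0.15 in irradiated arrays (0.06 to 0.81), against 0.26 and 0.19 over all probe sets tested. Irradiated replicate 1 was the highest of its group in 31 of the 66 probe sets and replicate 2 the lowest in 25. Among controls, replicate 4 was the highest in 19, and replicates 6, 7 and 8 were each the lowest in 11. The 75th percentile of all signals was highest in irradiated replicate 1 (0.24) and lowest in irradiated replicate 2 (0.07) of that group. Among controls it was highest in replicate 4 (-0.17) and lowest in replicate 1 (-0.33). The part of such whole-array differences in these counts was not tested.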

How the data were processed

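Total RNA from 15 testis samples was hybridised to Affymetrix rat arrays, 1 colour and 1 array a sample. The deposited values are log2 signals made by the authors with MAS5, per the submitters' processing notes; that the scale is log2 was read from the spike-in probe sets, and background and scaling settings are not given in the sources used here. They were used as deposited. Probe sets were named from the platform annotation, and array controls and probe sets with several symbols were left out of the members. Probe sets at or above the array median in 5 or more arrays were tested, which left 18711. The test was limma's (version 3.58.1, R 4.3.3; lmFit and eBayes), with Benjamini-Hochberg adjustment over all of these and a threshold of 0.05. The tested probe set with the highest mean stands for a gene. Where every array of a group was below its median, the fold is a bound: the bright group's mean was set against the dim group's mean after each dim value was raised to the median of its array. Values in each array are given for the largest rise and fall in each role and for genes with opposed probe sets, and outside the members for the 3 largest rises and falls of a pathway list. The members and lists were chosen with earlier results of these data known. Alternatives were the scaling, filter, pseudocount, left-out arrays, a replicate block and the median of a gene's probe sets. The number of arrays limits the precision.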

Additional observations from a re-analysis of the deposited data

Results flagged for a closer look

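In 13 of 132 groups (66 probe sets in 2 groups of arrays) 1 array stood apart from the rest of its group by Dixon's criterion at 95%, which chance gives in about 1 group of 20. Irradiated replicate 1 was the high value in 4 of these: 0.43 in Nup205 (nearest 0.25), 0.80 in Nup93 (nearest 0.56), 1.13 in Nup62 (nearest 0.92) and 2.58 in Xpo1 (1374395_at, nearest 2.26). Irradiated replicate 2 was high in Nup58 (1370711_a_at, -1.79, nearest -2.61) and in Rangap1 (1397465_at, -2.41, nearest -3.67), both in signals below the array median. Irradiated replicate 3 was low in Ipo5 (1373955_at, 0.90, nearest 1.36). Irradiated replicate 5 was low in Kpna1 (1382756_at, -0.60, nearest -0.01) and in Nup214 (1383092_a_at, -2.68, nearest -1.23). Among controls, replicate 2 was low in Nup214 (1383092_a_at, -2.24, nearest -1.10), replicate 10 low in Nup88 (3.14, nearest 3.33), replicate 8 low in Tnpo1 (1394440_at, -2.89, nearest -1.71) and replicate 6 high in Tnpo3 (1389979_at, 0.77, nearest 0.45).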

How the results depend on the processing

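The counts of members higher and lower stayed within 1.5 times the reported ones under every alternative run: 7 to 12 genes were higher and 25 to 33 lower, and 9 to 11 higher with 26 to 29 lower when 1 array was left out in turn. With replicate number as a block, on replicates 1 to 5 of both groups, 13 probe sets were higher and 39 lower, and 9 genes higher and 26 lower. The labels do not say whether the numbers pair the samples. Same-numbered arrays correlated in their deviations from the group means at -0.05, 0.04, 0.02, -0.04 and 0.07. These values show no clear likeness, but paired samples need not share such deviations, so the values cannot settle the question. The difference between Ipo7 and Ipo8 turned with a pseudocount of 0.25 (0.25, adjusted p = 0.155, exact permutation test). Directions that turned were those of Nup153 after quantile normalization (-0.026), with control replicates 1 to 5 (-0.041) and with the replicate block (-0.041), of Ipo9 (-0.12) and Xpo5 (1388956_at, -0.046) after quantile normalization, of Kpna4 with control replicates 6 to 10 (0.046), and of Xpo5 (-0.29) and Tnpo1 (-0.73) with the median of a gene's probe sets. The cause was not tested. Quantile normalization moved the median change of the members to -0.97 and that of all genes to -0.06, and the share of calls that were higher from 55.7% to 48.3%. With control replicates 6 to 10 alone the median change of the members shrank to -0.37, and that of all genes was 0.24. With control replicates 1 to 5 alone these medians were -0.71 and 0.23. Signals below the array median carry bounds only.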

Other observations

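One probe set carries 2 importin alpha symbols in the annotation, Kpna2 and Kpna2l1, and so belongs to none of the genes counted above. Its log2 signals were 2.50 to 3.17 in control arrays (mean 2.81 ± 0.20, SD, n = 10) and 0.07, -0.52, -0.39, 0.27 and 0.05 in irradiated arrays (mean -0.10 ± 0.33, SD, n = 5). The change was -2.91 ± 0.13 (limma adjusted p = 3.13e-12), and the groups did not overlap. Which of the 2 genes the signal belongs to cannot be told apart.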
